A study of Mus musculus with 6 samples.

Results

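The 39 genes described here encode enzymes that add or remove methyl groups on histone lysines, together with the core subunits of the H3K4 methyltransferases and KMT2E, a relative of these enzymes that binds methylated H3K4. They were taken as a fixed list of symbols from the 55364 genes in the table, and were grouped by the residue on which they act. No cut on values was used, but the list was chosen with earlier results of these data known. The shares of members set against all genes below are therefore descriptive. All 39 passed the filter on low values (1 TPM or more in 3 or more of the 6 libraries), as did 17353 genes in all. RNA-seq was performed on morulae from eggs and sperm of BDF1 mice (labelled BDF1 x BDF1), fertilized in vitro and cultured in KSOM. Fertilized eggs were injected for a control knockdown (control KD) or with an siRNA against *Yy1* (*Yy1* KD), the embryos were collected 64 h after insemination, and each group comprised 3 libraries. Every library pooled 10 whole morulae whose sex is not stated, so that a level is an average over embryos and cells. The knockdown was made by siRNA, not by deletion of the gene, and the sequence of the siRNA was not given in the sources used here. Whether the pools of a group came from separate fertilizations is not stated, and p-values measure the spread between these pools only.

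Methylation of histone H3 at lysine 4 (H3K4) marks promoters and enhancers, and is added by the KMT2 and SETD1 enzymes, which work in complexes built on WDR5, RBBP5, ASH2L and DPY30. Methylation of H3K36 and H3K79 is found in transcribed genes, whereas trimethylation of H3K9 and H4K20 is a hallmark of heterochromatin. Demethylases of the KDM families, which use either FAD or iron and 2-oxoglutarate, remove methyl groups, here from H3K4, H3K9, H3K27 or H3K36. In cleavage-stage mouse embryos the marks inherited from egg and sperm are extensively remodelled. YY1, the target of the siRNA, is a zinc finger transcription factor.

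The consensus of YY1, GCCATNTT on one strand and AANATGGC on the other, was searched on both strands of RefSeq promoters (GRCm38.p6; 250 bases before and 50 bases from the transcription start). Of the 39 members, 26 were matched by symbol to 37 promoters, and 5 genes (19.2%) held the consensus, against 6.96% of the 27025 genes in that table. Counted by promoter, it was in 5 of 37 (13.5%), against 6.05% of the 32851 promoters in the table. These backgrounds were not limited to genes expressed in morulae, whereas all members passed the filter on low values. The share among genes tested was not counted. A match is a stretch of letters and not a site shown to be bound, and binding of YY1 was not analysed here. The 5 stretches are shown because they are the places in these genes where the letters of the YY1 consensus occur next to a start. Each line gives 30 bases on the strand of the gene, with the 8 matched bases in capitals.
Suv39h2: ttgaatgaaagctccgcAAGATGGCggcgg
Kmt2a: cttacggggcgAACATGGCgcacagctgtc
Dot1l: cacgccggcccAAGATGGCggcggctctag
Ehmt2: tctggggggcaAAAATGGCcaagaggcccg
Suv39h1: agctgtggagaAAGATGGCggaaaatttaa

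All 5 read AANATGGC on the strand of the gene, and 3 of them are the same 8 letters, AAGATGGC. With the first transcribed base as 1, the match began at base 38 in *Suv39h2* (chr2:3474937-3474966 for the 30 bases, minus strand), at base 13 in *Kmt2a* (chr9:44881259-44881288, minus strand) and at base 27 in *Dot1l* (chr10:80755218-80755247, plus strand). Before the start, it began at position -87 in *Ehmt2* (chr17:34898376-34898405, plus strand) and at position -204 in *Suv39h1* (chrX:8074547-8074576, minus strand). The ATG inside the match is an annotated start codon (GENCODE vM21) in *Suv39h2*, *Kmt2a* and *Suv39h1*, but not in *Dot1l* or *Ehmt2*. The members *Kmt2b*, *Setd1b*, *Kmt2e*, *Ash2l*, *Nsd1*, *Nsd2*, *Nsd3*, *Ash1l*, *Kdm5a*, *Kdm3b*, *Kdm4b*, *Kdm2a* and *Kdm6b* were not matched.

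The libraries held between 11793509 and 24417789 read pairs on genes, as recovered from TPM and exon length. *Yy1* itself was at 96.0, 100.2 and 89.8 TPM in control KD and at 8.73, 8.90 and 8.32 TPM in *Yy1* KD morulae, so that the targeted gene followed the labels. Markers of the morula were present in every library (*Pou5f1* between 649 and 742 TPM, *Cdx2* between 56.1 and 69.3 TPM). Of 12 markers of cumulus and granulosa cells, which surround the egg, 3 reached 1 TPM in any library and *Has2*, *Ptx3*, *Tnfaip6* and *Cyp19a1* were at 0 in all 6. Their summed level was between 9.64 and 12.5 TPM in control KD and between 10.2 and 10.5 TPM in *Yy1* KD libraries, most of it from *Amhr2*. All 10 oocyte transcripts of a second list were detected, with sums of 75.6 to 107 TPM in control KD and 79.8 to 109 TPM in *Yy1* KD libraries. The sums of 8 markers of the trophectoderm side of the morula (1066 to 1188 TPM, and 813 to 1074 TPM) and of 8 markers of its inner side (1526 to 1757 TPM, and 1464 to 1596 TPM) overlapped between control KD and *Yy1* KD. Of the former list *Tfap2c* was downregulated (log2 fold change -0.54, limma adjusted p = 0.0174). Of the inner-side list none was called, and 4 of the 8 genes were lower in *Yy1* KD libraries without overlap, which was so for 17.2% of all genes tested. These were *Fgf4* (5.25 to 9.03 against 12.2 to 21.2 TPM, limma adjusted p = 0.0607), *Sox2* (4.02 to 7.03 against 8.73 to 14.3 TPM, limma adjusted p = 0.0942), *Tdgf1* (26.3 to 35.8 against 39.5 to 78.4 TPM, limma adjusted p = 0.108) and *Sall4*, at 93.7% of the control mean. The sum of that list rests mostly on *Pou5f1*, *Nanog* and *Sall4*. The part of such differences in cell make-up in the values below was not tested.

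In *Yy1* KD morulae, 6 of the 39 members were downregulated and none was upregulated (limma on log2(TPM + 1), Benjamini-Hochberg adjusted p under 0.05). The 6 were *Kmt2e*, *Ash2l*, *Ash1l*, *Nsd1*, *Dpy30* and *Dot1l*, and their log2 fold changes lay between -1.26 and -0.33. They made up 15.4% of the members, whereas 4.20% of all genes tested were downregulated. Members were expressed at higher levels than most genes (median of the control KD means 33.2 TPM, against 8.75 TPM for all genes tested), and their standard errors (SE) were smaller (median 0.11 against 0.21 on the log2 scale). Among genes with a mean of at least 10 TPM over the 6 libraries, 6.43% were downregulated, and of the 33 members at this level 5 were. In pools of whole embryos, fewer cells of one kind and less RNA per cell cannot be told apart.

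No member was upregulated, as against 1.92% of all genes tested. At an unadjusted p under 0.05, 4 members were higher (*Kmt5b*, *Kdm3a*, *Wdr5* and *Setd1a*) and 14 were lower in the same limma fit. Of the 17353 genes tested, 1623 were higher at that threshold, a share close to that of the members. Genes lower at that threshold were not counted over all genes. The 3 *Yy1* KD values lay below all 3 control KD values in 16 members (41.0%), which was so for 17.2% of all genes tested, and above them in 5 members (12.8%), against 12.9% of all genes tested. The median log2 fold change of the 39 members was -0.13 and that of all genes tested -0.025. For all genes tested with a mean of at least 10 TPM the median was -0.038. The shares without overlap were not counted at that level, and the members have smaller SE than most genes. In the plot of fold changes by residue, the downregulated members were in the methyltransferase and core subunit groups of H3K4, H3K36 and H3K79. No demethylase of H3K4 or H3K36 was called among the members. Of the demethylases and JmjC proteins outside the list, described below, *Kdm2b* and *Kdm6a* were downregulated and *Jmjd6* was upregulated. The groups are small, and 4.20% of all genes tested were downregulated, so that a group without a call is not set apart.

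**Figure D1:**
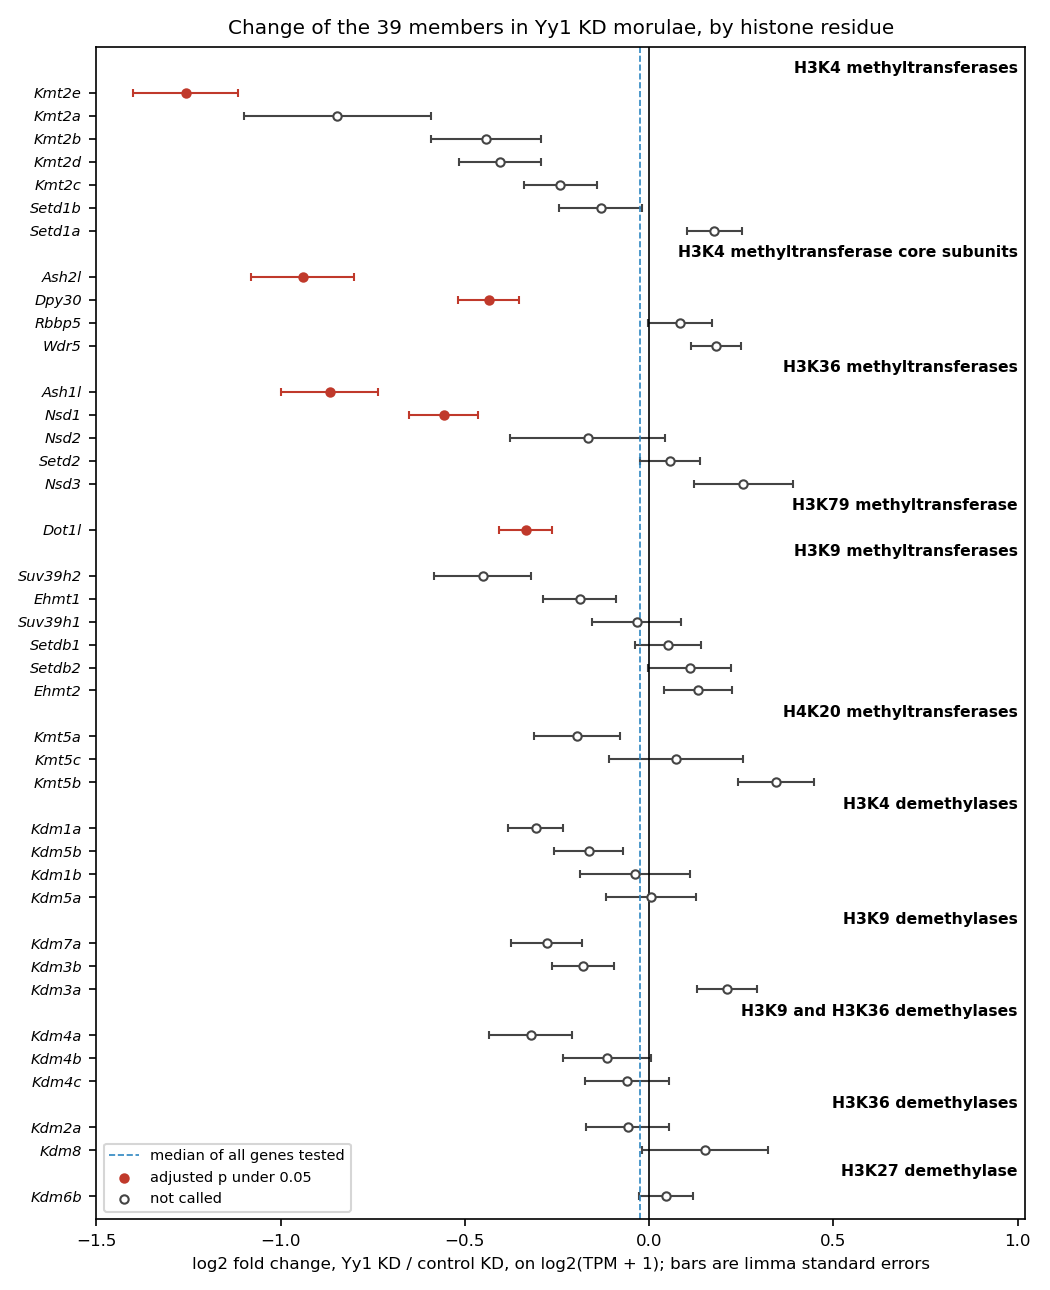
Log2 fold change (*Yy1* KD over control KD, on log2(TPM + 1)) of the 39 members, arranged by residue. Points are limma estimates and bars their SE, filled red points have an adjusted p under 0.05, and the dashed line is the median of all genes tested, -0.025; the 6 red points lie between -1.26 and -0.33.

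Calls were lost whichever library was left out, and the number called depended on the test. In fits without control KD replicate 1, 2 or 3, 0, 1 and 0 members were downregulated, and without *Yy1* KD replicate 1, 2 or 3, 3, 1 and 2 were, all of them among the 6, while the count over all genes tested fell to between 53 and 326 from 728. When limma-voom was applied to the recovered read pairs, the same 6 members and *Kmt2a*, *Kmt2b*, *Kmt2d* and *Kdm1a* were downregulated (10 of 39, against 7.59% of the genes tested in that way), and *Kmt5b* was upregulated (1 of 39, against 4.73%). The 6 members were negative under each of the 16 alternatives tried.

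**Figure D2:**
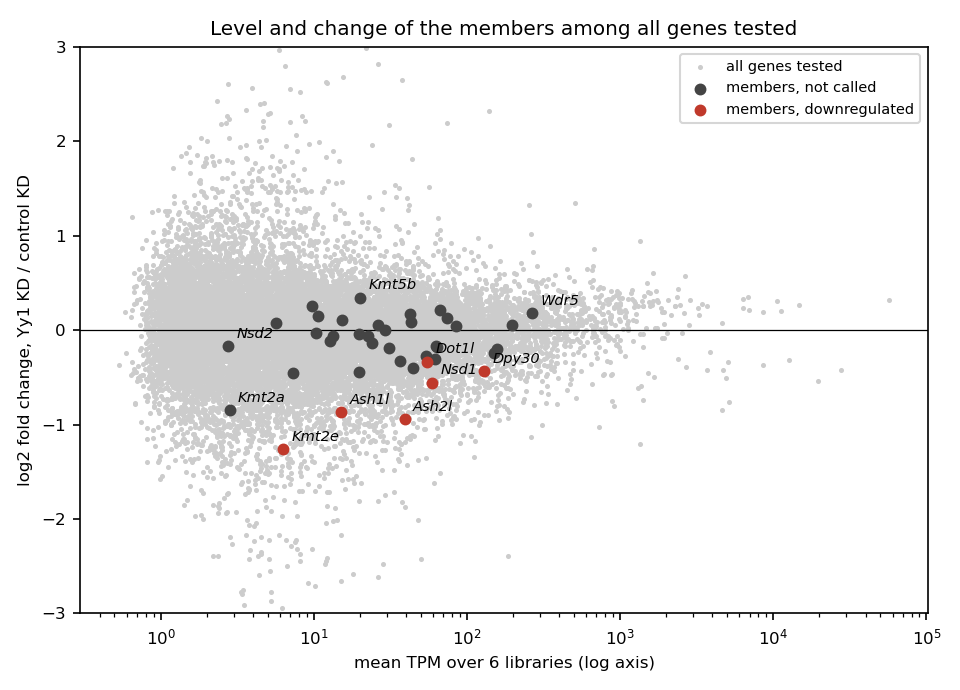
Mean TPM over the 6 libraries (log axis) against the log2 fold change for all 17353 genes tested (grey, with 19 genes outside the plotted range of 3 in either direction), members that were not called (dark) and downregulated members (red). The members lie towards higher levels, and *Kmt2e* is the lowest of the red points at a log2 fold change of -1.26.

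In control KD morulae the members spanned 2.97 to 249.96 TPM, a scale on which levels are corrected for gene length. *Wdr5* was the most abundant at 249.96 ± 10.3 TPM (SD, n = 3), followed by *Setd2*, the enzyme of H3K36 trimethylation, at 193 ± 13.1 TPM. *Kmt5a*, which monomethylates H4K20, at 168 ± 4.6 TPM, *Kmt2c* at 162 ± 17.6 TPM and *Dpy30* at 149 ± 10.3 TPM came next, and the ranges of neighbours among these 3 overlapped. At the low end stood *Kmt5c* at 5.45 ± 0.655 TPM, *Kmt2a* at 3.95 ± 1.37 TPM and *Nsd2* at 2.97 ± 0.432 TPM, again with overlapping neighbours. Of the 38 pairs of neighbours in this order, the library values did not overlap in 9. These levels order the transcripts and say nothing of protein or enzyme activity.

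Among the KMT2 and SETD1 family, *Kmt2e* (ENSMUSG00000029004.15, chromosome 5 from 23434441 to 23504235, GRCm38) changed most. KMT2E carries a PHD finger that binds trimethylated H3K4, and is not considered an active H3K4 methyltransferase. Its level was 9.01, 9.52 and 9.34 TPM in control KD and 3.46, 3.14 and 3.31 TPM in *Yy1* KD libraries. The groups lay far apart and each was tight. The mean went from 9.29 ± 0.261 to 3.31 ± 0.160 TPM (SD, n = 3 each), 35.6% of the control, giving a log2 fold change of -1.26 (SE 0.14, limma adjusted p = 0.0114). On recovered read pairs, where no constant of 1 is added to a low TPM, it was -1.48. It was called in 4 of the 6 fits that left out 1 library and lost the call without control KD replicate 1 or 3 (limma adjusted p up to 0.0589). Of its exon length 9.31% overlaps *Srpk2*, whose means were 4.92 TPM (control KD) and 4.68 TPM (*Yy1* KD).

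None of the 6 catalytic members of this family was called. *Kmt2a* (also known as *Mll1*), which maintains Hox gene expression, was at 2.87, 3.49 and 5.50 TPM in control KD and at 2.03, 1.52 and 1.55 TPM in *Yy1* KD libraries. The groups did not overlap, but the control values were widely spread. Its log2 fold change was -0.85 (SE 0.25, limma adjusted p = 0.105), and -1.15 on read pairs (limma-voom adjusted p = 0.0117), where between 128 and 684 pairs per library lay behind it. *Kmt2b*, which is required in the oocyte, had a log2 fold change of -0.44 (limma adjusted p = 0.133), with all 3 *Yy1* KD values, 14.2 to 19.9 TPM, below the control KD values, 21.4 to 25.5 TPM.

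*Kmt2d*, an enzyme of H3K4 monomethylation at enhancers, was at 51.3, 48.9 and 52.7 TPM in control KD and 40.2, 32.9 and 42.1 TPM in *Yy1* KD libraries. Here too the groups were apart, and the log2 fold change was -0.41 (limma adjusted p = 0.0826, limma-voom adjusted p = 0.0112). Its paralogue *Kmt2c* was 3.17 times as abundant in control KD morulae and had a log2 fold change of -0.24 (limma adjusted p = 0.202), with groups that overlapped. *Setd1a* and *Setd1b*, the enzymes responsible for much of H3K4 trimethylation at promoters, had log2 fold changes of 0.18 (limma adjusted p = 0.2097) and -0.13 (limma adjusted p = 0.534). The value of *Setd1a* is less certain than the others, since 52.3% of its exon length overlaps other annotated genes. Most of this is shared with *Gm49388* on the same strand, and read pairs were divided among overlapping genes.

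Of the 4 core subunits shared by these complexes, 2 were downregulated. *Ash2l* (ENSMUSG00000031575.18, chromosome 8 from 25815996 to 25847694), which with RBBP5 activates the catalytic subunit, was at 49.4, 50.3 and 55.3 TPM in control KD and 32.2, 22.5 and 25.4 TPM in *Yy1* KD libraries. All *Yy1* KD values were lower, and replicate 1 was the nearest to the controls. The mean was 51.7% of the control, a log2 fold change of -0.94 (SE 0.14, limma adjusted p = 0.0190). It was called in 1 of the 6 fits that left out 1 library, that without *Yy1* KD replicate 1, and adjusted p over these limma fits was between 0.0248 and 0.0786.

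*Dpy30* (ENSMUSG00000024067.14, chromosome 17 from 74299474 to 74323944), a small protein that binds ASH2L, was at 160.3, 140.3 and 146 TPM in control KD and 103, 112 and 115 TPM in *Yy1* KD libraries. The groups were apart, at 73.7% of the control mean, with a log2 fold change of -0.44 (SE 0.083, limma adjusted p = 0.0339). None of the 6 fits with 1 library left out called it. *Wdr5*, the scaffold that holds the catalytic subunit, was higher in all 3 *Yy1* KD libraries (274, 283 and 294 TPM, against 240.5, 261 and 249 TPM), a log2 fold change of 0.18 (limma adjusted p = 0.162). *Rbbp5* had a log2 fold change of 0.084 (95% confidence interval -0.12 to 0.29, limma adjusted p = 0.609), an interval that does not reach the change of *Ash2l* or *Dpy30*.

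**Figure D3:**
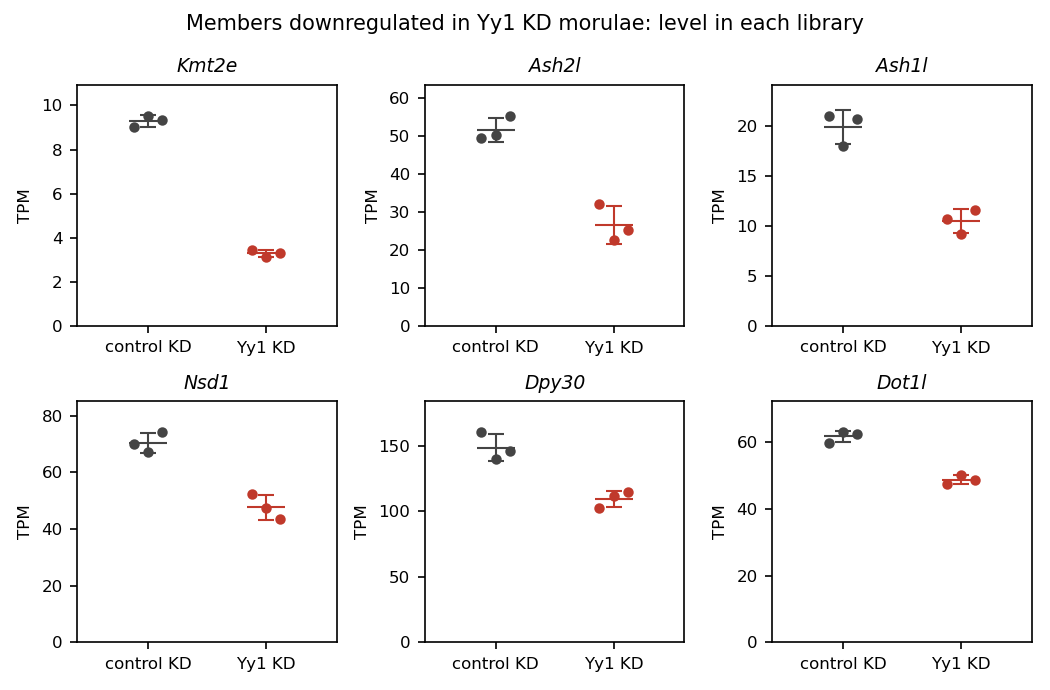
TPM of the 6 downregulated members in each library (points, 3 control KD and 3 *Yy1* KD), with the mean and SD as bars; each panel has its own axis from 0. In all 6 panels every *Yy1* KD point lies below every control KD point, for *Kmt2e* at 3.14 to 3.46 against 9.01 to 9.52 TPM.

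Among the 5 H3K36 methyltransferases, 2 fell. *Ash1l* (ENSMUSG00000028053.13, chromosome 3 from 88950622 to 89079375), a trithorax group enzyme of H3K36 dimethylation, was at 20.98, 17.97 and 20.7 TPM in control KD and 10.7, 9.16 and 11.5 TPM in *Yy1* KD libraries. The *Yy1* KD mean was 52.7% of the control, with a log2 fold change of -0.87 (SE 0.13, limma adjusted p = 0.0196). *Nsd1* (ENSMUSG00000021488.8, chromosome 13 from 55209782 to 55318325), which dimethylates H3K36 and is mutated in Sotos syndrome, was at 70.2, 67.2 and 74.1 TPM in control KD and 52.2, 47.3 and 43.5 TPM in *Yy1* KD libraries. It was at 67.7% of the control, with a log2 fold change of -0.56 (SE 0.094, limma adjusted p = 0.0259). Both sets of values were clearly apart. Each was called in 1 of the 6 fits that left out 1 library, *Ash1l* without *Yy1* KD replicate 3 and *Nsd1* without *Yy1* KD replicate 1. *Ash1l* shares 2.37% of its exon length with *Dap3*, whose log2 fold change was -0.16 (limma adjusted p = 0.462).

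*Setd2* was at 207, 181 and 192 TPM in control KD and 214, 200.2 and 188 TPM in *Yy1* KD libraries, so that the groups were intermingled (log2 fold change 0.057, 95% confidence interval -0.14 to 0.25). *Nsd3*, a paralogue of *Nsd1*, was somewhat higher in each *Yy1* KD library (10.1 to 11.2 TPM, against 7.84 to 9.79 TPM), with a log2 fold change of 0.26 (limma adjusted p = 0.308). *Nsd2* was near 3 TPM in control KD and had a log2 fold change of -0.17 with a wide interval, -0.67 to 0.33.

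*Dot1l* (ENSMUSG00000061589.14, chromosome 10 from 80755206 to 80795461) encodes the only known H3K79 methyltransferase, which has no SET domain. It was at 59.7, 62.8 and 62.4 TPM in control KD and 47.4, 50.03 and 48.6 TPM in *Yy1* KD libraries. The difference was small and regular, at 78.9% of the control, with a log2 fold change of -0.33 (SE 0.072, limma adjusted p = 0.0466). Its adjusted p was the closest to the threshold of the 6. No fit with 1 library left out called it, and neither did median-ratio scaling or quantile normalization. The call was also lost with 0.1 added to TPM in place of 1, no filter on low values, no variance trend or a replicate block. In all, *Dot1l* lost the call under 12 of the alternatives. It is the one downregulated member with the YY1 consensus in its promoter, in the transcribed part shown above, and *Dpy30*, the other downregulated member in the promoter table, had no match in its 4 promoters.

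None of the 6 H3K9 methyltransferases was called. *Setdb1*, which with TRIM28 silences retrotransposons, was at 24.5, 27.4 and 25.6 TPM in control KD and 26.5, 26.6 and 27.1 TPM in *Yy1* KD libraries. All 3 *Yy1* KD values lay inside the control range, and the 95% confidence interval of the log2 fold change was -0.16 to 0.26. *Ehmt1* and *Ehmt2* (GLP and G9a), which form a dimer for H3K9 dimethylation, had log2 fold changes of -0.19 (limma adjusted p = 0.309) and 0.13 (limma adjusted p = 0.4395). *Setdb2* was at 0.11 (limma adjusted p = 0.605).

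*Suv39h1* and *Suv39h2*, which trimethylate H3K9 in pericentric heterochromatin, are paralogues. *Suv39h2* was at 8.50, 8.29 and 8.89 TPM in control KD and 6.18, 5.79 and 5.996 TPM in *Yy1* KD libraries. These groups were tight and apart, with a log2 fold change of -0.45 that missed the threshold (SE 0.13, limma adjusted p = 0.097, limma-voom adjusted p = 0.0752). *Suv39h1*, on the X chromosome, was at 10.3, 10.2 and 10.8 TPM and at 11.02, 10.04 and 9.50 TPM, with a log2 fold change of -0.034 (95% confidence interval -0.32 to 0.26). Both genes hold the letters AAGATGGC, in *Suv39h2* in the transcribed part of the promoter and in *Suv39h1* before the start listed by RefSeq.

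The 3 H4K20 methyltransferases were not called either. *Kmt5b* (*Suv420h1*), which makes di- and trimethylated H4K20, was at 18.8, 17.6 and 16.2 TPM in control KD and 23.2, 21.5 and 22.8 TPM in *Yy1* KD libraries. It was the member with the largest positive log2 fold change, 0.34 (SE 0.10, limma adjusted p = 0.105, limma-voom adjusted p = 0.0202), and its groups did not overlap. Its paralogue *Kmt5c* was at 0.073 (limma adjusted p = 0.850). *Kmt5a* was at 167, 173 and 164.2 TPM in control KD and 163.7, 123 and 157 TPM in *Yy1* KD libraries, where replicate 1 was next to the control range and replicate 2 far below it (log2 fold change -0.20, limma adjusted p = 0.3599).

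Ratios within a library do not depend on its scaling, and were computed for 13 pairs of related members (two-sided exact permutation test, for which p cannot fall below 0.1). After Benjamini-Hochberg adjustment over the 13 pairs, the smallest p was 0.186, so that no pair could pass a threshold of 0.05. *Suv39h1* over *Suv39h2*, chosen after the values were seen, had log2 ratios of 0.28, 0.30 and 0.28 in control KD and 0.83, 0.79 and 0.66 in *Yy1* KD libraries (mean ratio 1.22 and 1.70). *Kdm3a* over *Kdm3b*, chosen likewise, had log2 ratios of 0.06, -0.07 and -0.35 in control KD and 0.25, 0.27 and 0.30 in *Yy1* KD libraries. *Setdb1* over *Setdb2* differed by -0.065 between the groups, the smallest difference of the 13.

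**Figure D4:**
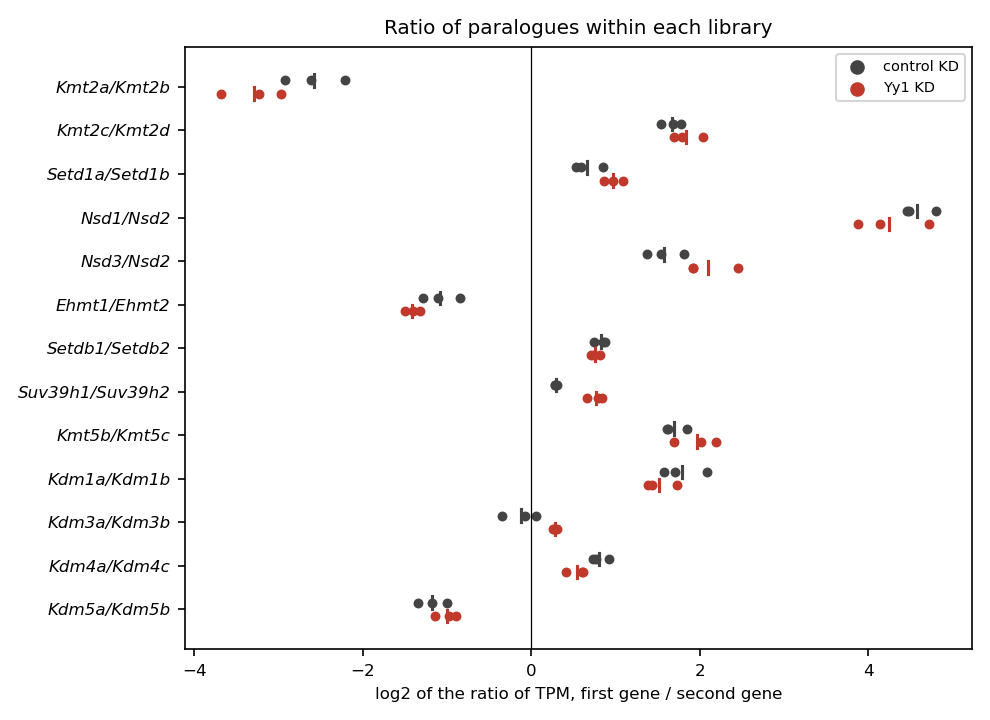
Log2 of the TPM ratio within each library for 13 pairs of related members (points; control KD dark, *Yy1* KD red; short bars are means of 3 libraries). For *Suv39h1*/*Suv39h2* the control KD points lie together between 0.28 and 0.30 and the *Yy1* KD points between 0.66 and 0.83.

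None of the 13 demethylases was called, in either direction, and 3 were lower and 1 was higher at an unadjusted p under 0.05 in limma. Of all genes tested, 4.20% were downregulated and 1.92% upregulated, and 1623 of 17353 were higher at the unadjusted threshold. Genes lower at the unadjusted threshold were not counted over all genes, so that the 3 lower demethylases have no share beside them. At the shares of calls, the lack of a call among 13 genes does not set them apart. The log2 fold changes of the demethylases lay between -0.32 and 0.21. Of the 4 demethylases of H3K4, *Kdm1a* (LSD1), which uses FAD and acts on mono- and dimethylated H3K4, was at 70.9, 66.4 and 69.2 TPM in control KD and 56.3, 56.9 and 53.0 TPM in *Yy1* KD libraries. The values did not overlap, and the log2 fold change was -0.31 (SE 0.074, limma adjusted p = 0.0606, limma-voom adjusted p = 0.0443). It was the demethylase closest to the threshold. *Kdm1b* (LSD2), needed in oocytes for DNA methylation of imprinted genes, had a log2 fold change of -0.038 (limma adjusted p = 0.9096), *Kdm5a* of 0.0049 (limma adjusted p = 0.988) and *Kdm5b*, which removes trimethylation of H3K4, of -0.16 (limma adjusted p = 0.342).

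Among the demethylases of H3K9, *Kdm3a* was at 65.5, 63.7 and 57.0 TPM in control KD and 72.7, 72.5 and 70.4 TPM in *Yy1* KD libraries, higher in each (log2 fold change 0.21, limma adjusted p = 0.175). Its paralogue *Kdm3b* had a log2 fold change of -0.18 (limma adjusted p = 0.254), and 24.6% of its exon length overlaps another annotated gene. *Kdm7a*, a PHD finger demethylase of H3K9 and H3K27, was at 57.9, 54.1 and 65.8 TPM in control KD and 46.2, 49.9 and 49.6 TPM in *Yy1* KD libraries. The groups were apart, and the log2 fold change was -0.28 (limma adjusted p = 0.142). *Kdm4a*, *Kdm4b* and *Kdm4c* act on both H3K9 and H3K36. Of these, *Kdm4a* was at 45.4, 36.1 and 40.75 TPM in control KD and 32.9, 34.2 and 29.8 TPM in *Yy1* KD libraries, again without overlap (log2 fold change -0.32, limma adjusted p = 0.144). *Kdm4b* and *Kdm4c* had log2 fold changes of -0.11 and -0.060.

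For *Kdm2a*, which demethylates H3K36 at CpG islands, *Kdm8* and *Kdm6b*, the groups overlapped. *Kdm6b* (JMJD3), a demethylase of H3K27, was at 80.7, 81.6 and 90.1 TPM in control KD and 86.1, 87.3 and 86.8 TPM in *Yy1* KD libraries. Its log2 fold change of 0.046 had a 95% confidence interval of -0.13 to 0.22. *Kdm8*, a JmjC protein, was at 8.65, 12.2 and 9.59 TPM in control KD and 10.9, 13.1 and 9.97 TPM in *Yy1* KD libraries (log2 fold change 0.15, limma adjusted p = 0.645). *Kdm2a* had a log2 fold change of -0.059 (limma adjusted p = 0.797).

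Besides the members, 80 other genes of the same pathways were listed, of which 74 passed the filter, and 7 were downregulated (9.46%) and 2 upregulated (2.70%). They have the same backgrounds as above, 4.20% and 1.92% of all genes tested, and this list too was chosen with earlier results known. Most of these calls were lost with 1 library left out: without control KD replicate 1, 2 or 3, 1, 1 and 0 genes were downregulated and none was upregulated, and without *Yy1* KD replicate 1, 2 or 3, 3, 1 and 2 were downregulated and 1, 1 and 0 upregulated. With the replicate block 1 was downregulated and none upregulated, and the calls below are those of the fit to all 6 libraries without a block. Of the subunits and partners of H3K4 methyltransferases, *Ncoa6*, part of the complexes of KMT2C and KMT2D, was at 23.1, 22.9 and 21.7 TPM in control KD and 11.5, 10.7 and 14.3 TPM in *Yy1* KD libraries (log2 fold change -0.85, limma adjusted p = 0.0209). *Wdr82*, a subunit of the SETD1 complexes, was downregulated as well (log2 fold change -0.56, limma adjusted p = 0.0408). *Psip1*, which encodes a reader of H3K36 methylation that associates with MLL, was at 30.3, 31.4 and 33.8 TPM in control KD and 52.8, 42.7 and 51.5 TPM in *Yy1* KD libraries, and thus rose (log2 fold change 0.60, limma adjusted p = 0.0301). Of its exon length 9.50% overlaps *Snapc3*.

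*Zmym2*, a partner of the LSD1 and CoREST complex, fell from 38.8, 35.1 and 38.4 TPM to 16.04, 16.6 and 19.6 TPM (log2 fold change -1.07, limma adjusted p = 0.00947), the largest change among the 9 called partners. The groups were well apart, whereas the demethylase itself, *Kdm1a*, missed the threshold. *Cbx5* (HP1 alpha), which binds methylated H3K9, fell (log2 fold change -0.33, limma adjusted p = 0.0485), and *Setd3*, a SET domain enzyme that methylates actin, fell likewise (log2 fold change -0.35, limma adjusted p = 0.0483). The other 12 partners of H3K9 methylation that were tested were not called.

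Of the remaining demethylases and JmjC proteins, *Kdm2b*, which recruits a Polycomb complex to CpG islands, was at 94.6, 95.1 and 94.1 TPM in control KD and 69.6, 67.6 and 61.8 TPM in *Yy1* KD libraries (log2 fold change -0.51, limma adjusted p = 0.0186). *Jmjd6* rose from 45.2, 44.2 and 44.0 TPM to 60.6, 65.7 and 64.2 TPM (log2 fold change 0.50, limma adjusted p = 0.0179). Other annotated genes overlap 8.74% of the exon length of *Kdm2b* and 7.34% of that of *Jmjd6*. *Kdm6a* (UTX), the X-linked demethylase of H3K27, was at 33.1, 31.5 and 34.6 TPM in control KD and 22.9, 23.6 and 19.1 TPM in *Yy1* KD libraries (log2 fold change -0.58, limma adjusted p = 0.0350), while its relative *Kdm6b* was not called. Of 5 sex-linked genes examined in the pools, 4 passed the filter and 1 was called, *Ddx3y*. *Xist* was between 28.2 and 84.2 TPM in control KD and between 26.4 and 58.5 TPM in *Yy1* KD libraries (limma adjusted p = 0.597), and the Y-linked *Ddx3y* was at 18.1, 30.5 and 17.8 TPM and at 5.04, 5.14 and 3.55 TPM (log2 fold change -2.02, limma adjusted p = 0.0126). *Eif2s3y*, also Y-linked, was at 4.09 to 7.77 TPM in control KD and 3.23 to 5.24 TPM in *Yy1* KD libraries, which overlapped (limma adjusted p = 0.316). The Y-linked relatives of *Kdm6a* and of the X-linked *Kdm5c* were low. *Uty* was at 1.05 to 1.602 TPM in control KD and 0.145 to 0.433 TPM in *Yy1* KD libraries, and *Kdm5d* at or under 1.09 TPM. The part of the sex of the embryos in the values of *Kdm6a* was not tested.

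**Figure D5:**
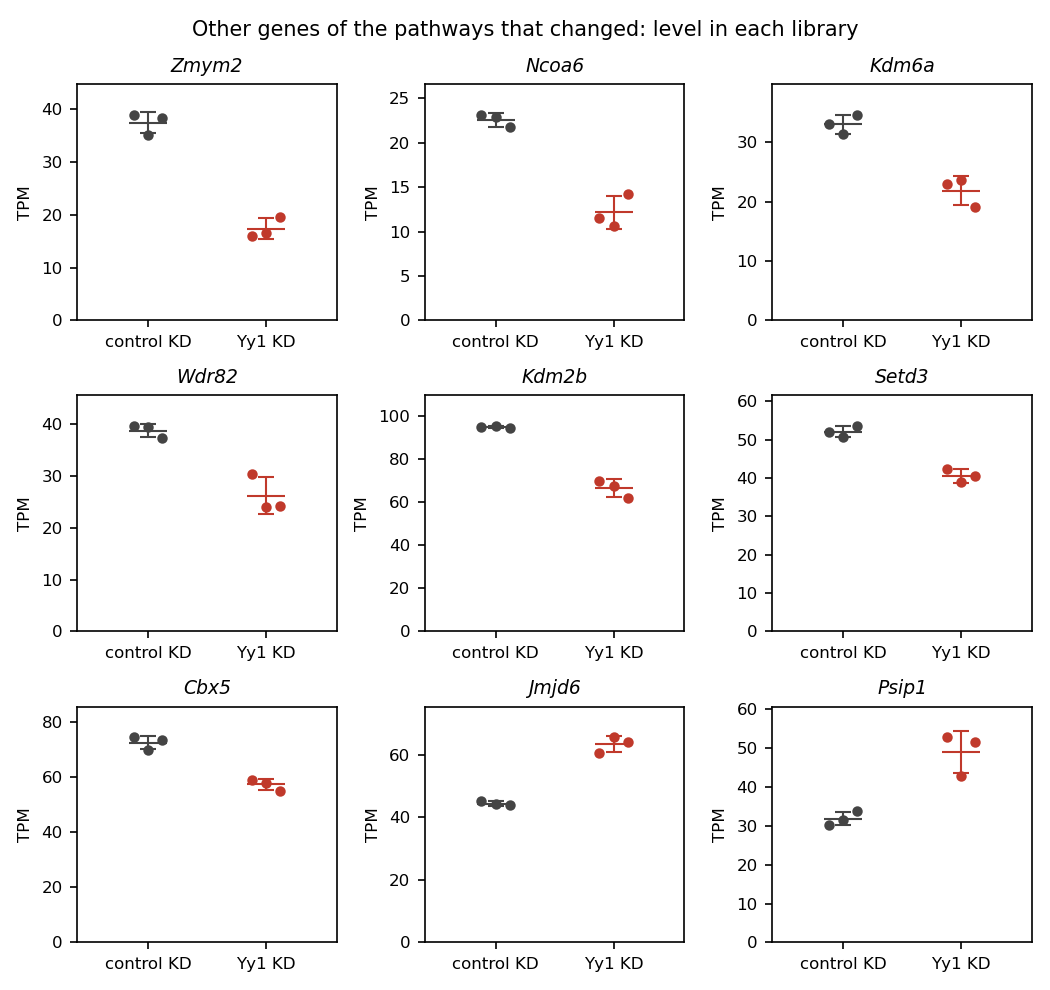
TPM of the 9 called genes among the 74 other pathway genes tested, in each library (points), with mean and SD as bars; each panel has its own axis from 0. *Zmym2*, *Ncoa6*, *Kdm6a*, *Wdr82*, *Kdm2b*, *Setd3* and *Cbx5* are lower and *Jmjd6* and *Psip1* higher in every *Yy1* KD library.

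The YY1 consensus was also present in promoters of 11 of the 70 other pathway genes with a promoter sequence (15.7%). Of all genes in the promoter table, expressed or not, 6.96% held it. *Smyd5*, *Pagr1a*, *Jarid2*, *Wiz*, *Hcfc1*, *Phf8* and *Kdm5c* held it and were not called, and *Hcfc2* held it and was not tested. Of the 9 called partners, *Wdr82*, *Cbx5* and *Jmjd6* held it, of which *Jmjd6* was upregulated, and their 30 bases are shown for comparison with those of the members.
Wdr82: cttctcccttcAAGATGGCggacacaatga
Cbx5: catgtgtaataAAAATGGCgagttcacgcc
Jmjd6: gcgaccttcccAACATGGCgcccaattggc

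The match of *Wdr82* (chr9:106170936-106170965, plus strand) began at base 19 of the transcribed part, with the same 8 letters as *Dot1l* and *Suv39h2*. That of *Cbx5* (chr15:103240022-103240051, minus strand) began at position -188 and that of *Jmjd6* (chr11:116843459-116843488, minus strand) at position -28, both before the start. None of these 3 covers an annotated start codon.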

How the data were processed

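Total RNA of pooled morulae was sequenced with the SMART-Seq stranded kit. Per the labels and the methods, the authors trimmed reads with Trim Galore (0.6.7), aligned them to mm10 with HISAT2 (2.2.1), removed ribosomal reads with bedtools, and counted pairs on GENCODE vM25 genes with featureCounts (2.0.1), ignoring strand and dividing pairs among overlapping genes. The authors deposited TPM, which is scaled to a fixed sum in each library and keeps no depth.

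Because TPM is not a count, limma (3.58.1, R 4.3.3) with a variance trend was fitted to log2(TPM + 1) of genes with at least 1 TPM in 3 libraries, without a block, and two-sided p-values were Benjamini-Hochberg adjusted over all 17353 genes tested. A fold change on this scale understates that of low genes. Standard errors and 95% confidence intervals are those of limma, and the test was checked on simulated data. Read pairs were recovered from TPM and GENCODE vM21 exon length (54312 of 55364 genes) and used for depth and limma-voom, an alternative added after seeing the data, as was rescaling TPM over genes of at least 200 nt. Between 80.6% and 81.6% of values under 20 pairs were whole within 0.01. Tables were made with Python 3.11.15 and pandas 2.3.3.

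All members could be named. Called members, and the member of each residue group with the largest change, were given by library, and called genes of the wider list were named. The members and lists were chosen with earlier results of these data known.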

Additional observations from a re-analysis of the deposited data

How the results depend on the processing

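With no filter on low values or no variance trend, 3 members were downregulated, and with a replicate block 1 was, *Kmt2e*. Limma-voom on recovered read pairs called 10 downregulated and 1 upregulated. Leaving out 1 library gave 0 to 3 downregulated members. The counts over all genes tested moved as well. Those downregulated went from 728 to 270 with no filter, 382 without a variance trend, 218 with the block and 1285 by limma-voom. They were 609 with median-ratio scaling and 548 with quantile normalization. Those upregulated went from 333 to 77 with no filter, 132 without a variance trend, 69 with the block and 801 by limma-voom. Of the other pathway genes, 1 was upregulated with no filter, 0 without a variance trend, 0 with the replicate block, 6 by limma-voom and 0 to 1 with a library left out. Those downregulated numbered 3 with no filter, 4 with median-ratio scaling, 3 with quantile normalization, 3 without a variance trend, 1 with the replicate block, 15 by limma-voom and 0 to 3 with a library left out. Libraries of the 2 groups with the same number did not deviate together (r of -0.00388, 0.0319 and 0.0747 across genes), and not every library correlated best with its own number, so that the numbers were not taken as a pairing. The cause of these changes was not tested.

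The sign changed in 6 members, all with log2 fold changes near 0. With median-ratio scaling *Suv39h1* was at 0.0052 and *Kdm1b* at 0.0032. With quantile normalization *Suv39h1* was at 0.047, *Kdm1b* at 0.0498, *Kdm4c* at 0.023 and *Kdm2a* at 0.026. *Kdm5a* was at -0.022 among genes of at least 200 nt. With 1 library left out, *Suv39h1* ranged from -0.087 to 0.0103, *Kmt5c* from -0.0545 to 0.152, *Kdm1b* from -0.156 to 0.0654, *Kdm5a* from -0.0834 to 0.118 and *Kdm4c* from -0.114 to 0.0354. The median of the members was between -0.17 and -0.053 over all alternatives.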
